A study of Drosophila melanogaster with 28 samples.

Results

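ChIP-seq with an antibody against the FLAG tag was used to compare where full-length and C-terminally truncated HMR sat on the genome of SL2 cells, a Drosophila melanogaster cell line of embryonic origin. The question was which genomic sites need the C-terminus of HMR. All cells were stably transfected with Hmr with a FLAG-HA tag, driven by the metallothionein promoter (pMT) that copper induces, carried Myc-Lhr as well according to the methods, still had their endogenous Hmr, and had been induced with 250 µM CuSO4 for 20 to 24 h. One group expressed the full-length protein (pMT HMR-FL-FLAG-HA, HMRwt-tg, n = 5 libraries) and the other the protein without its C-terminal end (pMT HMR-dC-FLAG-HA, HMRdC-tg, n = 5 libraries). The members are the merged regions of the 10 anti-FLAG peak lists, formed wherever peaks of any of the lists shared at least 1 bp. They numbered 4724, against 12046 over all 18 lists of the series, which include 8 lists of anti-HMR, an antibody that also sees endogenous HMR. For each region the lists with a peak were counted, from 0 to 5 for each construct.

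The lists held 465 to 4427 peaks for HMRwt-tg and 1093 to 3096 peaks for HMRdC-tg, so a list's length differed more within a construct than between them. The HMRwt-tg list of 465 peaks (replicate 2) stood apart from the other 4, which held at least 2354 peaks. Most HMRwt-tg regions could therefore reach only 4 of 5 lists. Replicate 5 of each construct was prepared with another library kit than the rest. The study calls the 5 FLAG experiments of each construct biological replicates and the labels record an input for each library, but neither says how the cultures were kept apart, so p-values measure the spread between these libraries. A list gives positions without a score, and the depth in reads is unknown.

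HMR, the product of Hybrid male rescue, and its partner LHR are required for the lethality of hybrid males between Drosophila melanogaster and its sister species. LHR and HP1a bind each other, and HP1a is the defining protein of pericentromeric heterochromatin, the repeat-rich chromatin on both sides of the centromeres that also covers most of chromosome 4. The truncated end of HMR holds its BESS domain, a protein interaction module. Heterochromatin is not empty of genes: it holds essential genes, many with very long introns filled with transposon remnants. HMR is also found along the gene-rich arms, at many sites near gene starts and insulators, the DNA elements bound by factors such as BEAF-32, CP190 and Su(Hw).

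To show what kept and lost sites look like, 7 regions without annotated untranslated sequence are given here from the reference genome (RefSeq Release 6 plus ISO1 MT, the sequence of dm6). Capitals mark CGATA on either strand (printed as CGATA or TATCG), the core bound by the insulator protein BEAF-32, and in the MtnA region TGCNCNC, the core of metal response elements. On the arms of chromosomes 2 and 3 outside the pericentromeric territories, 20.6% of all 200 bp windows held CGATA and 27.5% TGCNCNC on either strand, whereas TATCGATA, the DREF site that contains CGATA on both strands, was in 0.443%. Windows of 200 bp centred on transcript starts of these arms held CGATA in 33.7%. The 7 examples do not stand for the motif content of their classes: CGATA was in 38.7% of lost and 47.5% of kept pericentromeric regions, and in 57.1% and 70% on chromosome 4. The first pair of sequences was lost with the truncation, as defined further on. The Snap25 region holds 7 matches to CGATA, the intergenic region 5097 bp from the RpL15 start holds 1.
Snap25 intron, lost (chr3L:24293373-24293620, + strand): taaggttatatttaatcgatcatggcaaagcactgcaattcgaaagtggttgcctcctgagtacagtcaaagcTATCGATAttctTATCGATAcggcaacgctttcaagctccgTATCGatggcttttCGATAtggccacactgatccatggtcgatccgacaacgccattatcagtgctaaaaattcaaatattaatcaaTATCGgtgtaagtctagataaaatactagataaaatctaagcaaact
near RpL15, lost (chr3L:27262049-27262266, + strand): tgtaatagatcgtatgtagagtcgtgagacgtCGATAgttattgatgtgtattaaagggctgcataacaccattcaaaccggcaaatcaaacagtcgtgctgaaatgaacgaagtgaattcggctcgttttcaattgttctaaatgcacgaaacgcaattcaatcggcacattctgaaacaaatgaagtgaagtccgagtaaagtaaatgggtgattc

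The next pair lay in pericentromeric territories too and was present in all 10 lists. The region on 3L lies within an annotated R1 element, a retrotransposon that usually inserts into ribosomal DNA, and the region on 3R overlaps neither a gene nor an annotated element. Neither holds CGATA.
R1 element, all 10 lists (chr3L:25134555-25134768, + strand): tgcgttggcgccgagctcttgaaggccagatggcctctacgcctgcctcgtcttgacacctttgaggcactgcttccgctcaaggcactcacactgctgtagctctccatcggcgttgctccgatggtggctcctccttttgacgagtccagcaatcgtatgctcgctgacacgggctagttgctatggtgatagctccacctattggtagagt
near spok, all 10 lists (chr3R:3374251-3374469, + strand): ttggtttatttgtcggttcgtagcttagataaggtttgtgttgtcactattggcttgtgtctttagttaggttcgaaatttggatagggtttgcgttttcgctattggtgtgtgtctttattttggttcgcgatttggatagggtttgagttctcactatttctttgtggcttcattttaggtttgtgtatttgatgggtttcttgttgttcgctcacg

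From chromosome 4, a region between genes that was lost is shown beside the Asator region, which was in all 10 lists, with 5 and 2 matches to CGATA. The MtnA promoter region from the 3R arm stood at or next to the top of every list. It holds 4 matches to TGCNCNC, and the plasmids in these cells carry a metallothionein promoter of their own. Whether reads from the plasmids contributed to this region was not tested.
chromosome 4, lost (chr4:63384-63657, + strand): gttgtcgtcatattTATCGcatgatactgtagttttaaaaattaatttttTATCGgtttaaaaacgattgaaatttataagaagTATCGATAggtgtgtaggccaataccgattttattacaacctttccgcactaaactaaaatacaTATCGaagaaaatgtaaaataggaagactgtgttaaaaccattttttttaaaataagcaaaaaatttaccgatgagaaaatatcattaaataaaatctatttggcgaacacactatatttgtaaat
Asator, all 10 lists (chr4:486597-486834, + strand): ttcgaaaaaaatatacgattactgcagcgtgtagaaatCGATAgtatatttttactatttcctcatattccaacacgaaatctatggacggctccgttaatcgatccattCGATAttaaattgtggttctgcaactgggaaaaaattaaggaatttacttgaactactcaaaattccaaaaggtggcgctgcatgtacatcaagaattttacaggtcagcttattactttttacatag
MtnA, all 10 lists (chr3R:9784374-9784597, + strand): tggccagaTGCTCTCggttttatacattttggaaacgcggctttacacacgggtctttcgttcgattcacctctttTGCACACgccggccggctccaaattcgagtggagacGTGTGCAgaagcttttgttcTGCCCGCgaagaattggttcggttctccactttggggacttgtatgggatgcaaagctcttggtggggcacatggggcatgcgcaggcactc

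A region was called lost when it was present in at least 4 HMRwt-tg lists and at most 1 HMRdC-tg list, and kept when it was present in at least 4 lists of each construct. Of all 4724 regions, 170 (3.6%) were lost, 1444 (30.6%) were kept and 388 (8.21%) were in all 10 lists. The opposite pattern, at least 4 HMRdC-tg lists and at most 1 HMRwt-tg list, was met by 11 regions (0.233%). It was met by 79 without the 2 libraries of the other kit (at least 3 of 4 lists). It was met by 59 when only the first 465 lines of each list were used, a cut that gives the constructs the same number of peaks. In other terms, 1940 regions (41.1%) were in at least 4 HMRwt-tg lists, of which 8.76% were lost, 74.4% were kept and 326 fell in between. Of the 1571 regions (33.3%) in at least 4 HMRdC-tg lists, 91.9% were also in at least 4 HMRwt-tg lists. These classes come from the anti-FLAG lists themselves and are given as a description.

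The threshold runs through a graded distribution. Just inside it were 92 regions with 4 HMRwt-tg lists and 1 HMRdC-tg list and 5 regions with 5 and 1, and just outside were 129 regions with 4 and 2 and 7 regions with 5 and 2. Fisher's exact test on single regions, across all 4724, called 78 regions (1.65%) higher in HMRwt-tg at an unadjusted p under 0.05 and 0 (0%) higher in HMRdC-tg. After Benjamini-Hochberg adjustment, Fisher's exact test called 0 regions (0%), and the smallest unadjusted p that 5 against 5 lists allow is 0.00794. Without HMRwt-tg replicate 2 the count at an unadjusted p under 0.05 was 247, without HMRdC-tg replicate 1 it was 153, and without the 2 libraries of the other kit it was 4. The number of lists sets which patterns can pass, so these counts are not on the same footing. With 4 against 4 lists, only regions in 4 HMRwt-tg lists, the short replicate 2 among them, and 0 HMRdC-tg lists can be called higher in HMRwt-tg. The count of 4 therefore cannot show what the kit contributed. With the first 465 lines of each list, so that all lists were equally long, Fisher's exact test called 57 regions higher in HMRwt-tg and 45 higher in HMRdC-tg at an unadjusted p under 0.05. This cut gives the constructs the same number of peaks, so fewer peaks at some regions are matched by more at others. It cannot decide whether the split is one-sided. Of the 78 regions, 50 were pericentromeric, 16 lay on the arms of chromosomes 2 and 3, and X held 8, chromosome 4 held 3 and Y held 1.

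**Figure D1:**
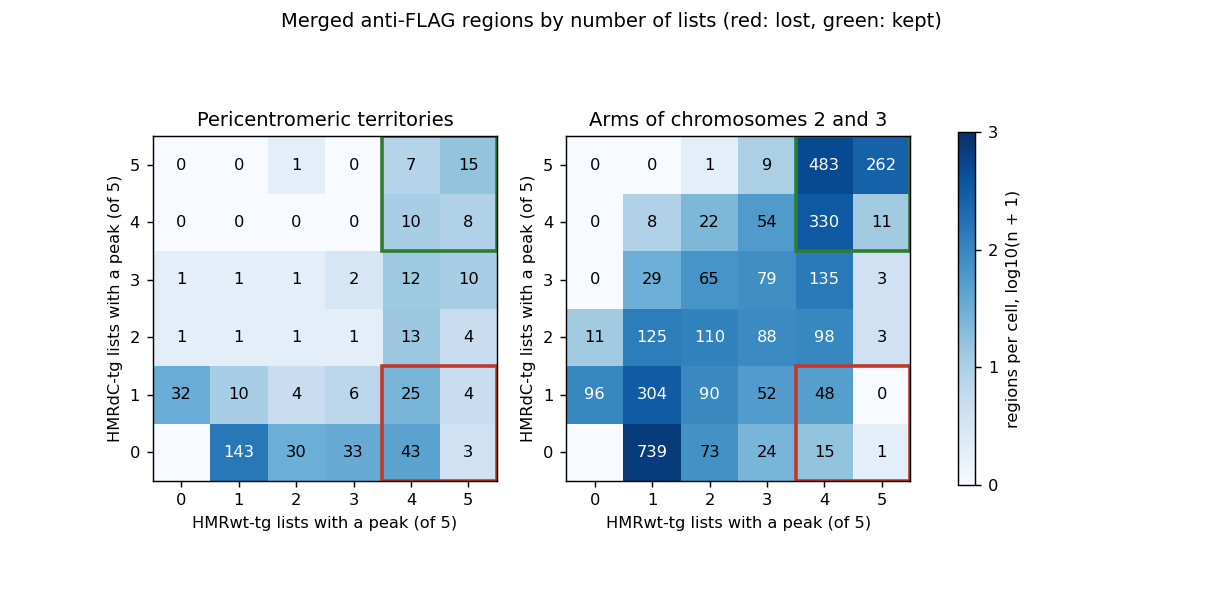
Number of merged anti-FLAG regions by the number of HMRwt-tg lists (x axis, 0 to 5) and HMRdC-tg lists (y axis, 0 to 5) with a peak, for the pericentromeric territories and for the arms of chromosomes 2 and 3, coloured by log10(n + 1). The red box holds lost regions (75 pericentromeric, 64 on the arms) and the green box kept regions (40 and 1086).

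The share of lost regions differed along the chromosomes. In the pericentromeric territories (2L from 21 Mb, 2R to 5.6 Mb, 3L from 22 Mb, 3R to 4.1 Mb), lost regions outnumbered kept ones on 3 of the 4 sides. The territory of 2L had 13 lost and 14 kept regions, that of 2R had 28 and 13, that of 3L had 25 and 9, and that of 3R had 9 and 4. On X, 23 of 356 regions in at least 4 HMRwt-tg lists (6.46%) were lost and 297 (83.4%) kept, and on chromosome 4, 7 of 39 (17.9%) were lost and 20 (51.3%) kept. The pericentromeric percentage rests on the list rule: 48.7% were lost as defined, 58.2% without HMRwt-tg replicate 2, 54.9% without the libraries of the other kit and 79.5% when only the first 465 lines of each list were used. The corresponding values on the arms were 4.61%, 8.26%, 5.25% and 10.4%. On chromosome 4 they were 17.9% (7 of 39), 25.5% (12 of 47), 9 of 41 regions and 60% (6 of 10). The pericentromeric percentage was thus above the arm percentage under each of these rules.

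Counted in bins of 1 Mb from the centromere-proximal end of the 4 arms, the percentage of lost regions was 51.9% in the first bin (14 of 27) and 44.8% in the second (13 of 29). It stayed between 25% and 35% from 2 to 6 Mb, was 7.94% from 6 to 7 Mb and lay between 1.69% and 5.45% in each bin from 7 to 12 Mb. The arms did not drop at the same distance. On 2L, 12 of 27 regions were lost in the first 2 Mb and 2 of 51 in the next 3 Mb. On 3L, 10 of 13 regions were still lost at 4 to 5 Mb, where none was kept, then 2 of 8 at 5 to 6 Mb and 1 of 20 at 6 to 7 Mb. On 2R, 11 of 20 regions were lost at 5 to 6 Mb and 1 of 15 at 6 to 7 Mb. Those drops lie close to the territory borders, which were chosen for this comparison with earlier results of these data known. Outside the borders, 9.86% of regions (7 of 71) were lost within 1 Mb of a border and 9.72% (7 of 72) within the following Mb, against 4.16% (33 of 793) more than 10 Mb away.

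**Figure D2:**
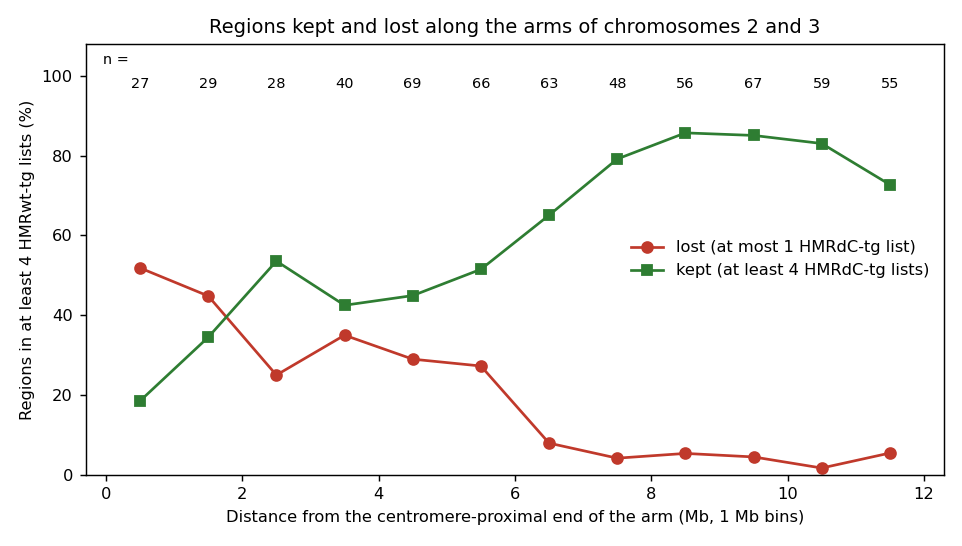
Percentage of regions in at least 4 HMRwt-tg lists that were lost (circles) or kept (squares), by distance from the centromere-proximal end of the arm in bins of 1 Mb, pooled over 2L, 2R, 3L and 3R, with the number of regions above each bin. The lost percentage falls from 51.9% to 7.94% between the first bin and the bin at 6 to 7 Mb.

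Within the pericentromeric territories, the kind of site differed between the classes. Of the 30 intronic regions in at least 4 HMRwt-tg lists, 22 (73.3%) were lost and 4 kept. Of the 78 at gene starts (within 200 bp of a transcript start), 27 (34.6%) were lost and 22 kept, and of the 46 between genes, 26 (56.5%) were lost and 14 kept. On 3L all 10 intronic regions were lost, and on 3R 7 of 9. On the arms, 9 of 82 intronic regions (11.0%) and 35 of 1017 regions at gene starts (3.44%) were lost. Lost regions in the territories lay a median of 4537 bp from the nearest transcript start, and kept ones 142.5 bp. Over all 422 pericentromeric regions the median was 9178 bp, so both classes lay nearer to starts than that.

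Annotated transposable elements overlapped 15 of the 75 lost (20%) and 7 of the 40 kept (17.5%) pericentromeric regions, and 15.4% of all 422 pericentromeric regions. The lost ones belonged to many families, led by INE-1 (3 regions), Cr1a (2) and Stalker4 (2), and the kept ones to rover (2), R1, G5, INE-1, gypsy12, gypsy8 and RR50207. On chromosome 4, kept regions included a HeT-A and a TART-C element, the retrotransposons that form Drosophila telomeres. No family was lost or kept in more than 3 pericentromeric regions. Reads of low mapping quality had been removed, so these are the mappable copies.

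Feature types were also compared with the library as the unit, using the share of each library's peaks in a feature type. These shares come from the same peaks as the classes, so they are not separate support for the pattern above. In the pericentromeric territories, intronic peaks made up 19.4%, 20.8%, 21.2%, 24.2% and 17.7% of peaks in HMRwt-tg replicates 1 to 5, and 9.77%, 12.2%, 15.4%, 7.22% and 8.82% in HMRdC-tg. The constructs did not overlap. The mean was 20.7% ± 2.41 (SD, n = 5) against 10.7% ± 3.20 (SD, n = 5), a difference of -9.97 percentage points that exceeds the library-to-library spread (exact permutation test, two-sided, p = 0.00794, 0.0476 after adjustment over the 6 feature types). It had the same sign with any library left out, but the adjusted p of this exact permutation test rose to 0.0952 without any one of HMRwt-tg replicates 1 to 4 (differences from -10.3 to -9.09 points). Without the 2 libraries of the other kit the difference was -10.2 points, again without overlap, at an adjusted p of 0.171 in the exact permutation test. There 4 against 4 libraries allow no unadjusted p under 0.0286, so a single feature type could not pass alone. Pericentromeric peaks at gene starts made up 42.1% ± 5.02 (SD, n = 5) in HMRwt-tg and 52.7% ± 7.91 (SD, n = 5) in HMRdC-tg, which overlapped and missed the threshold after adjustment (exact permutation test, p = 0.0397, adjusted 0.119). Those between genes (36.6% against 36.3%, exact permutation test, p = 0.944) and those overlapping transposable elements (13.5% against 14.7%, exact permutation test, p = 0.722) did not differ by more than the spread.

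Over the whole genome, a larger share of HMRdC-tg peaks lay at gene starts and a smaller share in introns. Gene starts took 63.2% to 71.0% of peaks in HMRwt-tg and 71.3% to 76.5% in HMRdC-tg, with means of 68.9% ± 3.21 and 73.9% ± 2.38 (SD, n = 5 each, exact permutation test, p = 0.00794, adjusted 0.0159). The gene start difference of 4.95 points was 3.40 points with the first 465 lines of each list (exact permutation test, adjusted p = 0.2) and 2.07 points in the upper part of each list by line (adjusted p = 0.4), and passed in neither. Introns took 7.87% ± 0.622 against 6.09% ± 0.428 (SD, n = 5 each, exact permutation test, p = 0.00794, adjusted 0.0159), again without overlap, and with the first 465 lines their difference of -0.688 points missed the threshold (exact permutation test, adjusted p = 0.2). Peaks overlapping transposable elements took 2.66% ± 0.509 against 1.63% ± 0.238 (SD, n = 5 each, exact permutation test, p = 0.00794, adjusted 0.0159). Divergent gene starts, where transcripts leave in opposite directions within 500 bp of each other, took 26.5% ± 3.74 against 31.7% ± 2.22 (SD, n = 5 each, exact permutation test, p = 0.0159, adjusted 0.0238). This last difference was 3.55 points without HMRwt-tg replicate 2 (exact permutation test, adjusted p = 0.0595). Peaks between genes (20.4% against 17.4%) missed the threshold (exact permutation test, p = 0.0873).

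These genome-wide shares include the pericentromeric peaks, whose share was 8.89% ± 1.54 (SD, n = 5) in HMRwt-tg and 3.59% ± 0.658 (SD, n = 5) in HMRdC-tg. How far that share accounts for the genome-wide differences was not tested. On the arms of chromosomes 2 and 3 alone, gene starts took 72.4% ± 3.62 (SD, n = 5) and 74.7% ± 2.72 (SD, n = 5), which overlapped (exact permutation test, p = 0.333). Arm introns took 6.22% and 5.80% (exact permutation test, p = 0.135), and none of the 6 feature types passed the adjusted threshold there (exact permutation test, smallest p = 0.0238, for transposable elements, adjusted 0.143). Without HMRwt-tg replicate 5, the arm share of transposable elements passed it (-0.547 points, exact permutation test, adjusted p = 0.0476). On X, looked at after the other results were seen, gene starts took 67.3% to 72.9% in HMRwt-tg and 74.8% to 76.8% in HMRdC-tg (exact permutation test, p = 0.00794, adjusted 0.0476), and peaks between genes 17.5% ± 3.31 against 14.3% ± 0.649 (SD, n = 5 each, exact permutation test, p = 0.0159, adjusted 0.0476). The adjusted p for gene starts on X reached 0.0952 and that for peaks between genes 0.162 when single libraries were left out of these exact permutation tests.

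**Figure D3:**
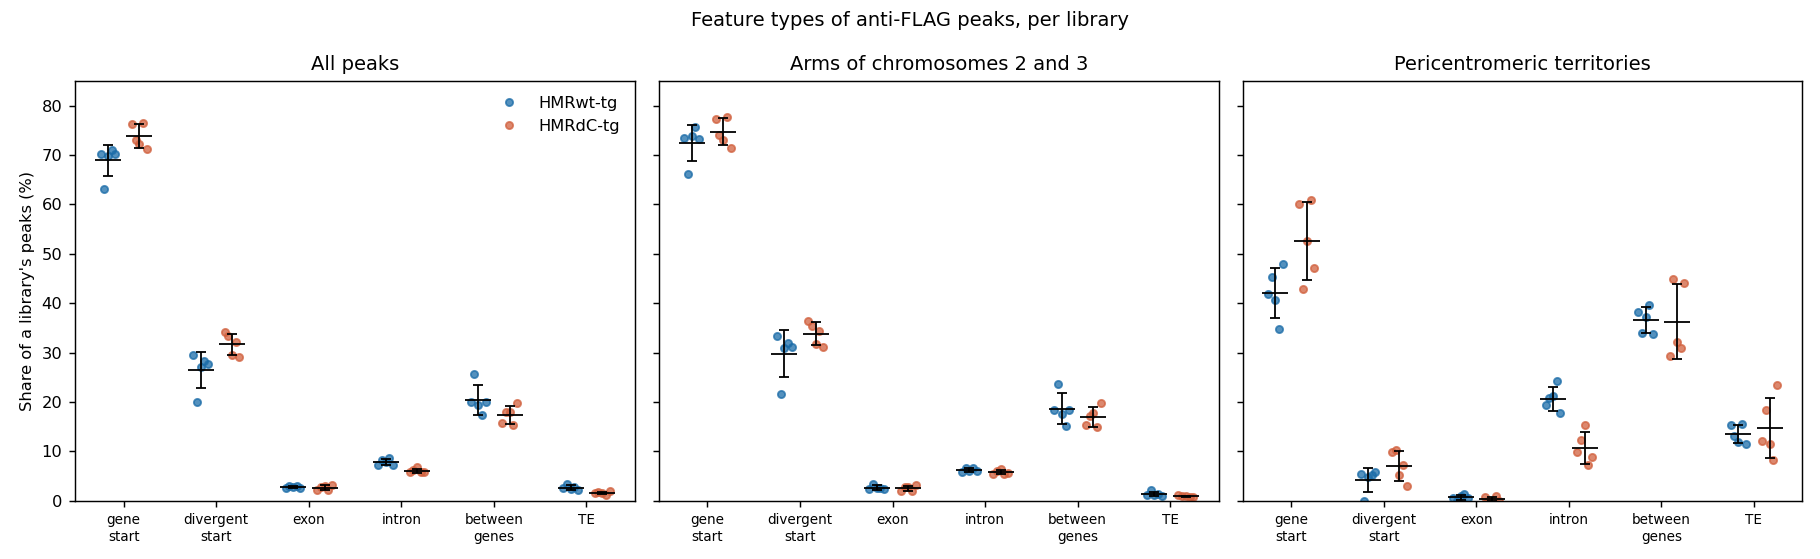
Share of each anti-FLAG library's peaks (%) by feature type, for all peaks, the arms and the pericentromeric territories, with 5 points per construct and the mean ± SD in black. TE stands for annotated transposable elements. Pericentromeric introns run from 17.7% to 24.2% in HMRwt-tg and from 7.22% to 15.4% in HMRdC-tg, whereas arm introns overlap.

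Several lost regions lay at the starts of genes with basic cellular roles. Among the pericentromeric regions of 2L tied for the largest excess of HMRwt-tg over HMRdC-tg lists, the first by list position spanned the start of lt (FBgn0002566, chr2L:22924598-22924875), whose product, the Vps41 homologue, acts in vesicle traffic to the lysosome. It stood at 9.69%, 36.6%, 12.8%, 15.5% and 12.1% of the way down HMRwt-tg lists 1 to 5 (0 is the top of a list), at 51.6% of HMRdC-tg list 1 and in no other HMRdC-tg list. The start regions of Df31 (FBgn0022893, chr2L:21629875-21630121), which encodes a chromatin protein, and cta (FBgn0000384, chr2L:22981654-22981883), a G protein alpha subunit, were in 4 HMRwt-tg lists at 27.8% to 43.7% and in 0 HMRdC-tg lists. All 3 stood in the upper part of the long HMRwt-tg lists, but ties in the excess were broken by that position, so this follows from the choice.

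On 2R, a region between genes at chr2R:3209573-3209817 was in 5 HMRwt-tg lists and 0 HMRdC-tg lists, at 44.1% to 89.7% of the way down. A region at chr2R:4192420-4192627 was in 4 and 0 lists, and lay 4397 bp from the start of RNASEK, where a neighbouring region at chr2R:4188057-4188314 was in all 10 lists. An INE-1 element in an intron of Nipped-B (FBgn0026401, chr2R:4701309-4701615), which encodes the loader of cohesin, was in 4 HMRwt-tg lists at 31.0% to 52.0% and in 0 HMRdC-tg lists. Lost and kept regions could thus lie next to each other.

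On 3L, the Snap25 region printed above (FBgn0011288, the SNARE protein of synaptic vesicle fusion) stood at 9.22%, 35.8%, 14.05%, 12.8% and 19.2% of the HMRwt-tg lists and at 52.3% of HMRdC-tg list 1, and was in no other HMRdC-tg list. The region near RpL15 stood at 20.2% to 29.5% of 4 HMRwt-tg lists, and no HMRdC-tg list held it. A region in an intron of lncRNA:CR46482 (FBgn0287613, chr3L:27859301-27859531), 1145 bp from the start of eIF4B, stood at 17.4% to 45.2% of 4 HMRwt-tg lists and was in 0 HMRdC-tg lists. These 3 were also chosen among tied regions by their position in the HMRwt-tg lists, so their place there does not describe lost regions in general.

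Some heterochromatic genes, most of them very long, held several lost regions each. They were chosen for their lost regions, so these counts follow from the choice and do not describe long heterochromatic genes in general. Of the 6 regions in at least 4 HMRwt-tg lists within Myo81F (FBgn0267431, a myosin gene of 1965857 bp at chr3R:567076-2532932), all in introns, 4 were lost and 1 kept. The lost Myo81F region with the largest excess, at chr3R:1995105-1995486, was in 5 HMRwt-tg lists at 44.8% to 96.3% and in 0 HMRdC-tg lists, and the kept one, at chr3R:2302272-2302506, was in 5 and 4 lists at a mean of 9.85% in HMRwt-tg and 88.1% in HMRdC-tg. All 4 regions in introns of Snap25 (225026 bp) and both in introns of Pzl (FBgn0267430, 709421 bp) were lost. The Pzl region at chr3R:3103627-3103972, in a gene related to the mechanosensitive channel Piezo, was in 5 HMRwt-tg lists at 47.6% to 96.6% and in 0 HMRdC-tg lists. In nAChRalpha4 (FBgn0266347), a nicotinic acetylcholine receptor subunit gene on 3L, all 3 regions were lost, 2 of them intronic. A region at chr3R:4081815-4082062 in CG42402 (FBgn0259821), with its midpoint in an intron, was in 4 HMRwt-tg lists at 18.9% to 27.7% and in 0 HMRdC-tg lists.

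Other pericentromeric genes kept the peak. The starts of step (FBgn0086779, chr2L:21757376-21757631), a guanine exchange factor for Arf GTPases, and Hr39 (FBgn0261239, chr2L:21237021-21237278), a nuclear receptor, were in all 10 lists. The step region stood at 1.36% to 3.23% of the HMRwt-tg lists and at 2.97% to 13.8% of the HMRdC-tg lists. The Hr39 region stood at 1.78% to 13.4% and at 2.94% to 10.7%, so its constructs overlapped. The start of Clamp (FBgn0032979, chr2L:22169075-22169362), which encodes a zinc finger protein of dosage compensation, stood at 4.34% to 23.7% and at 7.85% to 44.3%.

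Of the 6 regions in all 10 lists on pericentromeric 2R, the 3 named here were those highest in the lists, and 3L and 3R had 1 each. Positions are relative to lists of unequal length. The RNASEK start (FBgn0262116) stood at 10.5%, 37.5%, 5.21%, 1.63% and 1.86% of the HMRwt-tg lists and at 44.6%, 76.2%, 48.0%, 24.3% and 63.9% of the HMRdC-tg lists, which overlapped through HMRwt-tg replicate 2. The start of CG17883 (FBgn0040005, chr2R:4671700-4671920) stood at 4.62% to 41.6% and at 43.2% to 81.3%, without overlap. An intergenic region at chr2R:1243293-1243733 stood at 3.56% to 9.91% and at 28.2% to 44.5%. The R1 region printed above stood at 11.9% to 28.0% and at 40.6% to 93.4%. The 3R region printed above, 51550 bp from the start of spok, a gene of ecdysone synthesis, was at or within 0.0678% of the top of every HMRwt-tg list and at 1.29% to 15.1% of the HMRdC-tg lists, also without overlap.

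Over the 40 kept pericentromeric regions, the median position was 14.2%, 42.7%, 13.2%, 7.75% and 9.96% of HMRwt-tg lists 1 to 5 and 34.8%, 44.6%, 42.7%, 37.0% and 58.9% of the HMRdC-tg lists. HMRwt-tg replicate 2, the short list, was the one HMRwt-tg list within the HMRdC-tg range. The lost regions stood lower than the kept ones in every HMRwt-tg list, with medians from 45.2% to 63.6% in replicates 1, 3, 4 and 5. In replicate 2 the median was 88.3%, but that list held only 8 of the 75 lost and 25 of the 40 kept regions. The position of all pericentromeric peaks was then set against that of the arm peaks of the same list, as the difference in medians. It was 2.74, 11.4, 8.63, 12.1 and -8.08 points in HMRwt-tg and 13.8, 19.4, 23.0, 20.3 and 38.3 points in HMRdC-tg, where a higher value means nearer the bottom. The mean rose from 5.37 ± 8.37 (SD, n = 5) to 23.0 ± 9.22 (SD, n = 5) without overlap (exact permutation test, p = 0.00794). Line order stands in for a score that the lists do not give, and with the first 465 lines of each list the difference of 12.6 points no longer passed the exact permutation test (p = 0.159).

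**Figure D4:**
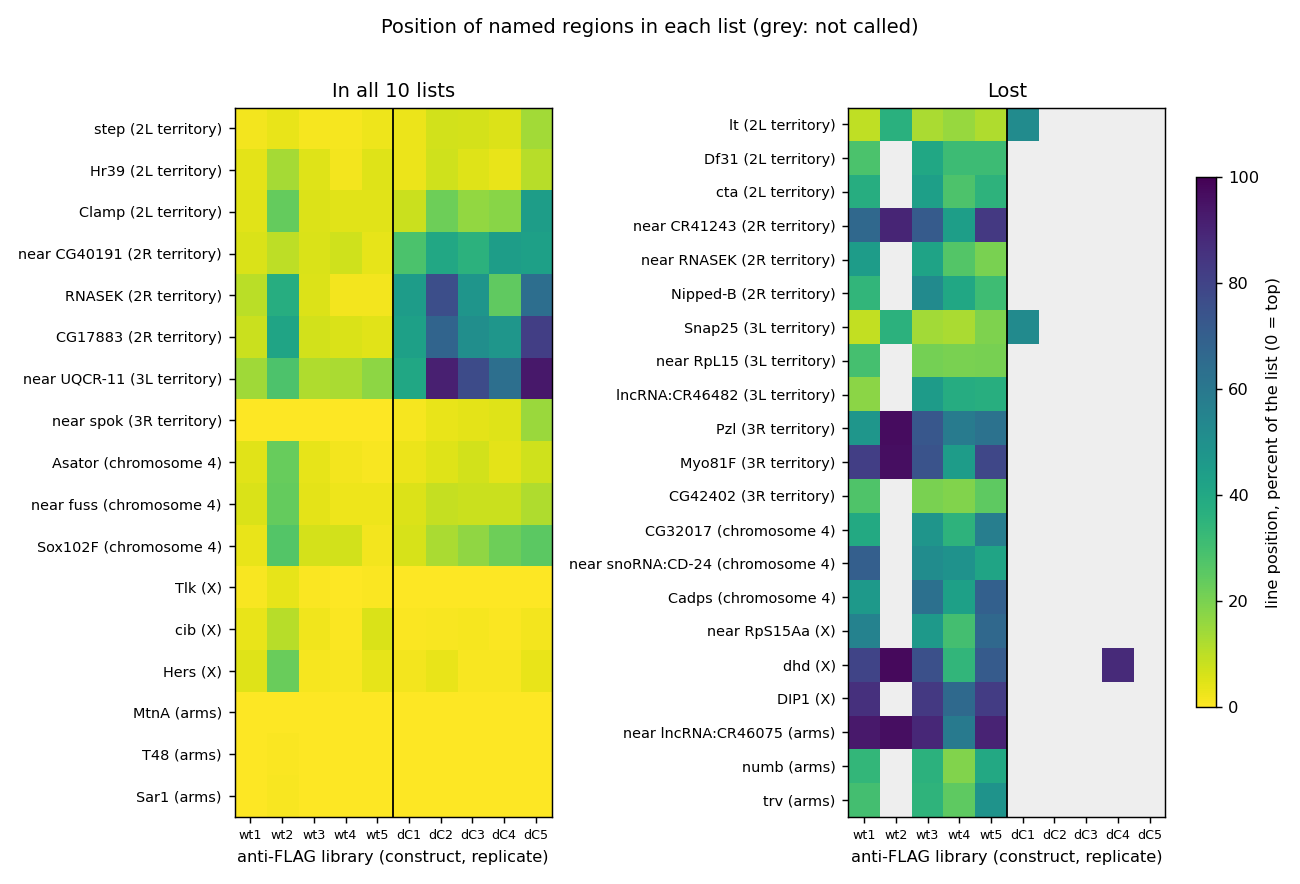
Position of the named regions in each anti-FLAG list (columns, construct and replicate) as a percentage of the list, 0 at the top, for regions in all 10 lists (left) and lost regions (right), with grey for lists without a peak. Of the lost regions, lt and Snap25 have a peak in HMRdC-tg list 1 and dhd in HMRdC-tg list 4, and the other 18 have none in the HMRdC-tg lists.

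On chromosome 4, the start of CG32017 (FBgn0052017, chr4:1146571-1146790), the intergenic region printed above and a region in an intron of Cadps (FBgn0053653, chr4:1234808-1235088), which encodes a regulator of dense-core vesicle release, were each in 4 HMRwt-tg lists and 0 HMRdC-tg lists. They stood at 35.2% to 69.7% of those lists. Asator (FBgn0039908), a kinase gene related to tau tubulin kinase, was in all 10 lists at 0.830% to 23.3% in HMRwt-tg and 2.81% to 7.14% in HMRdC-tg. A region 689 bp from the start of the transcription factor gene Sox102F (FBgn0039938, chr4:834953-835210) was at 1.58% to 26.9% and 6.11% to 25.2%, and one 1543 bp from the start of fuss (chr4:979910-980153) at 2.69% to 23.5% and 5.11% to 11.8%. In all 3 the constructs overlapped.

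On X, a region between genes at chrX:13334898-13335125 was in 4 HMRwt-tg lists and 0 HMRdC-tg lists, as was the start of DIP1 (FBgn0024807, chrX:21630150-21630434), which encodes an RNA-binding protein. The divergent start of dhd (FBgn0011761, chrX:5312013-5312336), a thioredoxin of the female germ line, was in 5 and 1 lists and stood low, at 34.4% to 97.4% of the HMRwt-tg lists. Of the 104 X regions in all 10 lists, the 3 highest by mean position are named here. Over the 297 kept X regions, the median of the mean position was 59.9% in HMRwt-tg and 58.4% in HMRdC-tg. Tlk (FBgn0283657, chrX:3719736-3720037), the Tousled-like kinase, was at 0.158% to 3.88% in HMRwt-tg and 0.0762% to 0.291% in HMRdC-tg. The start of cib (FBgn0026084, chrX:4105798-4106033), an actin-binding protein, was at 0.723% to 10.6% and 0.457% to 1.92%, and that of Hers (FBgn0052529, chrX:19865931-19866187), a repressor of histone genes, at 1.11% to 22.8% and 0.877% to 3.30%. Within 2 Mb of the proximal end of X, 4 of 12 regions were lost, and 18 of 298 more than 5 Mb away.

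On the arms, lost regions were few. The start of numb (FBgn0002973, chr2L:9437206-9437460), an inhibitor of Notch signalling, stood at 19.1% to 39.5% of 4 HMRwt-tg lists, and an exon of trv (FBgn0085391, chr3R:28086146-28086380) at 24.9% to 48.6%. No HMRdC-tg list held either. A region at chr2R:6436559-6436811, beyond the 2R territory border, was in 5 and 0 lists but at 58.7% to 96.1%. The arm regions highest in all 10 lists were the starts of MtnA (FBgn0002868, chr3R:9784374-9784597), T48 (FBgn0004359, chr3R:26881454-26881664), a membrane protein of gastrulation, and Sar1 (FBgn0038947, chr3R:22356447-22356673), the GTPase of COPII vesicles. MtnA stood at 0 to 0.216% in HMRwt-tg and 0 to 0.0916% in HMRdC-tg, T48 at 0.0226% to 0.647% and 0.0381% to 0.183%, and Sar1 at 0.0904% to 1.08% and 0.129% to 0.366%. No other metallothionein gene had a region.

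The 11 regions in at least 4 HMRdC-tg lists and at most 1 HMRwt-tg list lay on the arms (8) and X (3), and none in the territories or on chromosome 4. All 11 were in 4 HMRdC-tg lists and 1 HMRwt-tg list, and the 5 highest by mean position in the HMRdC-tg lists were in an exon of lov (chr2R:25085891-25086131), a BTB domain gene, and at the starts of Ptth (chr2L:576861-577074), the hormone that drives ecdysone release, RpL36A (chr2L:8042787-8043080), BEAF-32 (chr2R:14771264-14771615) and CG5112 (chr3R:25491275-25491557). None differed between constructs by Fisher's exact test (p = 0.206). The lov region was the highest, at 12.9% to 58.0% of the HMRdC-tg lists and 38.6% of HMRwt-tg list 3. For the other 4 the HMRwt-tg list was replicate 4, the longest. Hmr had no region, and the region at the start of Lhr (chr2R:17431108-17431328) was in 1 HMRwt-tg list and 3 HMRdC-tg lists.

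Genes were next counted by regions with a midpoint within 1 kb of one of their transcript starts, so that regions deep in introns, such as those of Snap25, Myo81F and Pzl, do not enter. Of 18277 genes, 2636 had such a region in at least 4 HMRwt-tg lists, of which 2063 were kept, 453 between and 120 lost (4.55%). The list of 26 classical pericentromeric genes had 17 such genes, of which 9 were lost (52.9%), 4 kept and 4 between. Counted by region in the territories, 48.7% were lost in all and 34.6% within 200 bp of a transcript start. The share in this list is thus near that of its territories and is not particular to these genes. The lost ones were lt, cta, Spf45 (splicing), rl (the MAP kinase ERK), uex (a magnesium transporter family), Haspin (a histone H3 kinase), RpL38 (large ribosomal subunit), Dbp80 (an RNA helicase) and Parp1 (poly(ADP-ribose) polymerase). The kept ones were RpL5 and RpL15 (large ribosomal subunit), Gprk1 (a kinase that acts on G protein-coupled receptors) and d4. Those between were Nipped-A and vtd (the cohesin subunit Rad21), MED21 (mediator) and Yeti. Of 18 chromosome 4 genes, 9 had such a region, and 6 were kept, including ey, the Pax6 homologue, and pan, the TCF factor, while Eph, a receptor tyrosine kinase, was lost in 4 and 1 lists.

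Ribosomal protein and tRNA genes were counted wherever they lay in the genome. Of 86 cytosolic ribosomal protein genes, 53 had a region in at least 4 HMRwt-tg lists, and 48 were kept (90.6%), 4 between and 1 lost, which was the pericentromeric RpL38. Of 73 mitochondrial ribosomal protein genes, 19 had one, with 13 kept (68.4%), 6 between and 0 lost. Of 295 tRNA genes, 19 had one, with 16 kept (84.2%), 2 between and 1 lost, tRNA:Pro-CGG-2-1 on X. These counts stand against 78.3% kept and 4.55% lost over all genes.

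Of the 18 genes of heterochromatin proteins, 5 had a region in at least 4 HMRwt-tg lists. Su(var)2-HP2, Su(var)3-7, egg (an H3K9 methyltransferase) and prod, all on the arms, were kept, and Parp1, in the 3R territory, was lost. Of 19 insulator and promoter architecture genes, mod(mdg4), pita and pzg were kept and none was lost, and of 11 centromere and kinetochore genes, Nnf1a, Nuf2 and Spc25 were kept and none was lost. Most genes of these lists had their region in fewer than 4 HMRwt-tg lists or no region.

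Base composition and known motifs were compared on the arms. Arm peaks had a GC content of 39.2% in both constructs (exact permutation test, p = 0.976), and pericentromeric peaks 37.2% ± 1.25 and 38.6% ± 1.32 (SD, n = 5 each, exact permutation test, p = 0.119). CGATA was in 48.8% to 52.3% of arm peaks in HMRwt-tg and 51.6% to 53.5% in HMRdC-tg, against 20.6% of 200 bp arm windows and 33.7% of 200 bp windows at arm gene starts (difference 2.00 points, exact permutation test, p = 0.0159, adjusted 0.0952 over 6 motifs). The DREF site TATCGATA, which contains CGATA, was in 11.8% and 12.7% of arm peaks (0.443% of arm windows and 4.98% of start windows). The M1BP site GGTCACAC was in 13.2% and 13.7% (0.442% and 4.84%). The CTCF core AGNNGGCGC was in 9.05% and 9.56% (1.87% and 1.82%). The Su(Hw) core GCNTACTT was in 3.31% and 3.06% (2.27% in both). The GAGA factor site GAGAGAG was in 1.36% and 1.08% (2.28% and 4.07%), below its share of either kind of window. Matches on either strand were counted. None of the 6 motifs passed the adjusted threshold.

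Among classes, CGATA was in 29 of 75 lost (38.7%) and 19 of 40 kept (47.5%) pericentromeric regions, and TATCGATA in 12 (16%) and 2 (5%). On the arms CGATA was in 30 of 64 lost (46.9%) and 558 of 1086 kept (51.4%) regions, and TATCGATA in 3 (4.69%) and 130 (11.97%). These are counts of letters in the regions and are given without a test, since merged regions differ in width.

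The anti-HMR lists give a measure that did not enter the classes, although these libraries shared their inputs with 4 anti-FLAG libraries of each construct and anti-HMR sees endogenous HMR too. Regions lost in anti-FLAG were recovered in 72.9%, 30%, 85.9% and 44.1% of cases by the 4 anti-HMR libraries of HMRwt-tg cells and in 60%, 34.1%, 17.1% and 38.8% by those of HMRdC-tg cells. The ranges overlapped. The means of 58.2% ± 25.7 and 37.5% ± 17.7 (SD, n = 4 each) did not differ by more than the spread (exact permutation test, p = 0.229, where 0.0286 is the smallest that 4 against 4 allow). Regions kept in anti-FLAG were recovered at 66.0% ± 31.6 and 63.5% ± 30.6 (SD, n = 4 each, exact permutation test, p = 0.943). Of the lost regions, 9 of 170 were in no anti-HMR list and 22 were in all 8.

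Regions were also chosen by anti-HMR, without use of the anti-FLAG lists. The choice was not independent of the construct, since a region could pass through the 4 anti-HMR lists of HMRwt-tg cells alone, and inputs were shared. Regions in at least 4 of the 8 anti-HMR lists were taken, and the percentage with an anti-FLAG peak was calculated per library. In the pericentromeric territories (155 regions) it was 77.4%, 29.0%, 79.4%, 91.0% and 79.4% in HMRwt-tg and 60.6%, 22.6%, 36.1%, 46.5% and 16.8% in HMRdC-tg. HMRwt-tg replicate 2 lay within the HMRdC-tg range and the other 4 HMRwt-tg libraries above it. On the arms (1497 regions) the means were 59.1% ± 23.2 and 61.3% ± 10.5 (SD, n = 5 each, exact permutation test, p = 0.889). Over the territories and chromosome 4 together they were 71.1% ± 25.5 and 40.3% ± 18.2, which missed the threshold (SD, n = 5 each, exact permutation test, p = 0.0714). To allow for list length, the arm percentage of each library was subtracted from its percentage over the territories and chromosome 4 together. This gap was 11.9 ± 2.48 points in HMRwt-tg and -21.1 ± 9.83 points in HMRdC-tg (SD, n = 5 each), positive in 5 of 5 HMRwt-tg and negative in 5 of 5 HMRdC-tg libraries (exact permutation test, p = 0.00794, the smallest that 5 against 5 allow). The difference in the gap kept its sign and that p with each library left out, from -36.3 to -29.8 points. With regions in at least 6 of the 8 anti-HMR lists, which requires lists of both constructs, it was -33.7 points (exact permutation test, p = 0.00794).

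By feature type, the mean recovery of pericentromeric intronic regions chosen by anti-HMR (24 regions) was 62.5% ± 18.6 (SD, n = 5) in HMRwt-tg and 18.3% ± 12.0 (SD, n = 5) in HMRdC-tg. At pericentromeric gene starts (86 regions) it was 77.7% ± 29.0 and 40% ± 23.9, and between genes (44 regions) 65% ± 19.9 and 40.5% ± 10.9 (SD, n = 5 each). On the arms, intronic regions were recovered at 29.4% and 28.6% and gene starts at 75.1% and 79.6%. On X the corresponding values were 30.6% and 25.3% for introns and 81.9% and 88.1% for gene starts. On chromosome 4, gene starts (31 regions) were recovered at 71.6% ± 33.9 and 48.4% ± 26.7 and regions between genes (14) at 72.9% ± 21.7 and 67.1% ± 13.0 (SD, n = 5 each). Differences between feature types were not tested.

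**Figure D5:**
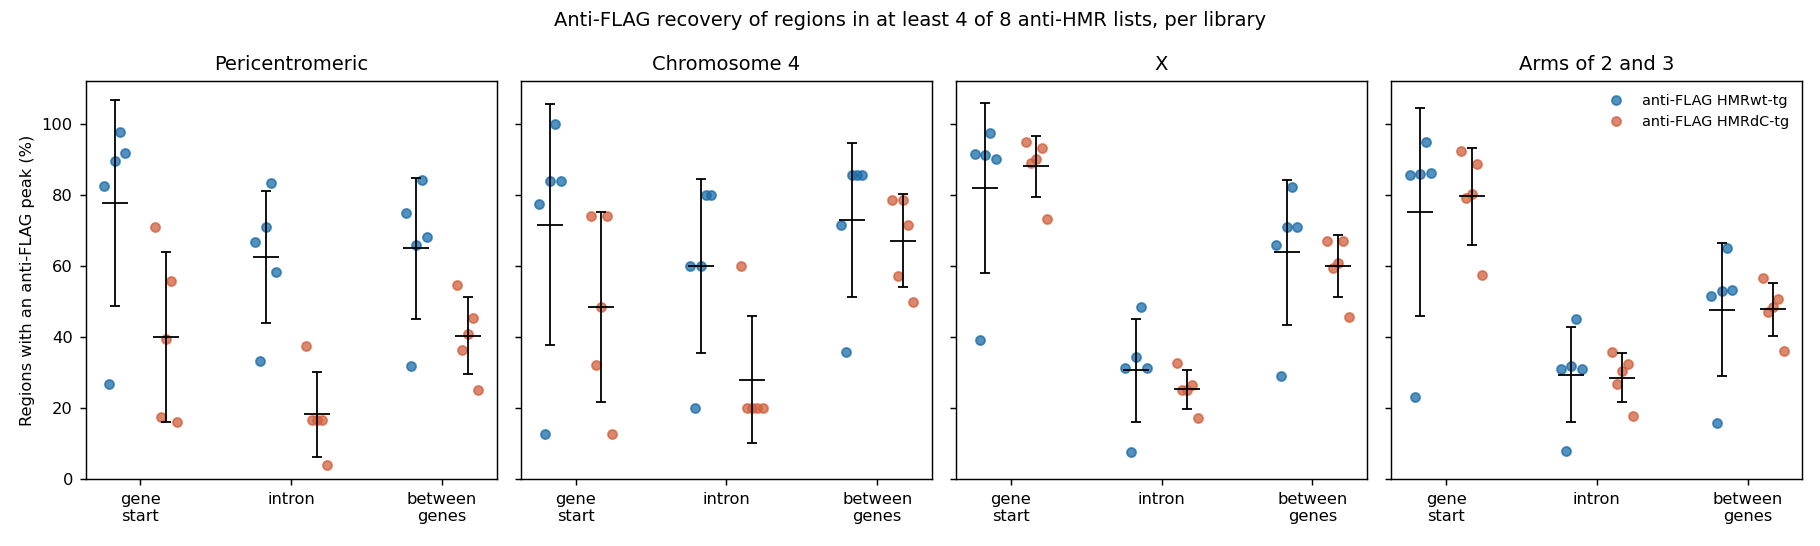
Percentage of regions in at least 4 of 8 anti-HMR lists that had an anti-FLAG peak (y axis), per anti-FLAG library, by chromosome domain and feature type, with 5 points per construct and the mean ± SD in black. Pericentromeric introns average 62.5% in HMRwt-tg and 18.3% in HMRdC-tg, and arm introns 29.4% and 28.6%.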

How the data were processed

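Reads were 50 bp and single-end. Per the labels and the study's methods, the authors aligned to dm6 (Bowtie2 2.2.9), dropped reads of low mapping quality (SAMtools 1.3.1) and ran HOMER 4.9 in factor mode on each library, at a peak size of 200 bp. The deposited lists give chromosome, start and end of each peak and no score or signal; line order was used as rank, a choice made after seeing the files, since the lists are not in genome order and shared regions stood in a like order over the 45 pairs of anti-FLAG lists (Spearman's rho across regions 0.609 to 0.960). The 10 input libraries were not used here.

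Peaks were merged at 1 bp overlap and assigned by midpoint to features of Ensembl release 115 (coordinates of dm6): gene start (200 bp), exon, intron or between genes; divergent starts and transposable elements were counted besides. The test between constructs was an exact permutation of libraries on the difference in means, two-sided (252 splits of 5 against 5, 70 of 4 against 4). Benjamini-Hochberg adjustment was over 6 feature types or 6 motifs, and single regions were tested by Fisher's exact test. The lost rule and the tests were also run on simulated presence and absence calls. Regions planted there in all HMRwt-tg lists and no HMRdC-tg list meet the rule by construction, so this checked the code only. Peak merging was not simulated. Replicates were numbered in accession order. Members and gene lists were chosen with earlier results of these data known. Regions were named by rule. In each domain up to 3 lost regions with the largest excess of HMRwt-tg lists were taken. Ties went to those highest by mean position in the HMRwt-tg lists. Up to 3 regions in all 10 lists with the highest position were taken there too. Also named were up to 5 regions mostly in HMRdC-tg lists, genes with 3 or more lost regions, lost members of the gene lists, and Hmr, Lhr and the metallothioneins. Pzl, with 2 lost regions, and the kept region of Myo81F were added after their values were seen, as was the share on X. Alternatives were other windows, borders, overlaps, list lengths, region definitions, ranks in place of values, each library left out, and the 2 NEBNext libraries left out. Python 3.11.15, numpy 2.4.6, scipy 1.17.1 and matplotlib 3.10.9 were used.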

Additional observations from a re-analysis of the deposited data

Results flagged for a closer look

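Of 74 groups of libraries screened for a value far from the others, 9 were flagged; chance flags about 1 in 20. In 7 of them the library was HMRwt-tg replicate 2, the list of 465 peaks. Its peaks lay at gene starts in 63.2% of cases (the other 4 HMRwt-tg libraries from 69.9% to 71.0%) and at divergent gene starts in 20% (27.0% to 29.5%). On the arms the same library had 66.2% at gene starts (73.2% to 75.6%), 21.6% at divergent gene starts (31.0% to 33.4%), 3.48% in exons (2.30% to 2.62%) and 7.32% with the DREF motif TATCGATA (11.97% to 13.8%). In the pericentromeric territories 0 of its peaks lay at divergent gene starts (4.87% to 5.73% in the others). HMRdC-tg replicate 1 had a GC content of pericentromeric peaks of 36.3% (38.7% to 39.5% in the others), and HMRdC-tg replicate 3 had 4.33% of its X peaks in exons (3.14% to 3.37%).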

How the results depend on the processing

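No paired analysis was possible because the labels number no replicates that would pair libraries across constructs; a test blocked by library kit was not run; values without the NEBNext libraries are those within the other kit. With the first 465 lines of each list, the HMRdC-tg minus HMRwt-tg difference missed the threshold for gene starts (3.40 points), introns (-0.688) and list position (12.6), and passed it for pericentromeric GC content (2.06). With the upper part of each list by line, it missed it for gene starts (2.07), divergent starts (5.31), transposable elements (-0.522) and list position (13.9), and passed it for pericentromeric GC content (3.17). On X, the divergent start difference turned to -0.00878 and -0.362 under these cuts, and all shares but that of transposable elements changed side of the threshold under some alternative. A 500 bp start window brought peaks between genes past the threshold (-2.94). Without the NEBNext libraries, pericentromeric introns missed it (-10.2), where 4 against 4 libraries did not allow a single feature type to pass alone. With the first 1150 lines of each anti-HMR list, recovery of lost regions differed by -9.26 points (exact permutation test, p = 0.0286). Regions lost were 79.5% (territories), 10.4% (arms), 2.94% (X) and 60% (chromosome 4) with the first 465 lines, and 8.26% (arms) and 10.7% (X) without HMRwt-tg replicate 2, alternatives chosen after seeing the data. Single-region calls at p under 0.05 by Fisher's exact test were 4 without the NEBNext libraries. With so few lists, only regions in every list of a construct and in no list of the other can pass. Calls higher in HMRdC-tg were 45 with the first 465 lines (57 higher in HMRwt-tg) and 2 with 100 bp overlap. Leaving out each library in turn gave 79 to 247 calls higher in HMRwt-tg and 1 to 12 higher in HMRdC-tg, divergent starts 3.55 to 5.92 points, peaks between genes -3.83 to -1.76, pericentromeric introns -11.1 to -9.09, pericentromeric GC content 1.16 to 2.00 and the arm CGATA share 1.53 to 2.40. Without HMRwt-tg replicate 5, transposable elements on the arms passed the threshold (-0.547). The cause of these changes was not tested. Without scores or read counts, weak binding and its absence cannot be told apart in a list.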
